A study of Mus musculus with 6 samples.

Results

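The proteins of the cytosolic ribosome are encoded by the Rpl genes of the large subunit, the Rps genes of the small subunit, the stalk genes Rplp0, Rplp1 and Rplp2, and Rpsa. Members were taken by gene symbol alone, with no measured value: an Rpl or Rps symbol followed by a number, with or without an a or x, or one of the 4 named symbols. This gave 76 genes of 24421 in the count table, 46 of the large and 30 of the small subunit. They were measured in primary neural stem cells of mouse embryonic brain (E13.5), grown as neurospheres in 20 ng/ml epidermal growth factor, 20 ng/ml fibroblast growth factor 2 and 20% oxygen, and lysed on day 4 after dissociation. One group was WT (3 libraries) and the other was PML knockout, Pml-/- (3 libraries). All 6 libraries carried the same batch label. The part of Pml that was deleted, the mouse strain, and whether the replicates were separate cultures or embryos are not stated in the labels, so the p-values cover only how far these 6 libraries scatter, and that scatter may be technical.

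Ribosomal proteins are needed in near-equal numbers, because each ribosome holds one copy of nearly all of them, with the stalk proteins P1 and P2 as an exception. Their mRNAs are short and abundant, and most start with a cytosine followed by a run of pyrimidines, the 5′ terminal oligopyrimidine (TOP) motif, through which the kinase mTOR and the binding protein Larp1 set how strongly they are translated. Ribosome assembly starts in the nucleolus on ribosomal RNA made by RNA polymerase I, and unassembled Rpl5 and Rpl11 can bind Mdm2 and stabilise p53. The mouse genome also carries many processed pseudogenes of these genes, some of which are nearly identical to the parent mRNA.

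RefSeq promoter windows (GRCm38.p6) were matched for 56 of the 76 genes, at 66 annotated starts. The sequences are shown because a pyrimidine run at the start is known from this gene family, and because the genes with the widest differences between libraries can be compared by it. Each is 30 bases, 5′ to 3′ on the transcribed strand, with 15 bases before the annotated start and 15 from it, and capitals mark runs of at least 8 C or T. The first 5 genes are those with a low or high knockout value below (Rpl15, Rpl19), 2 stalk or signalling members (Rplp2, Rps6) and the least abundant tested gene (Rpl7a). Rps2, Rps23 and Rpl5 follow as genes with no such run in the window. Rpl19 has a second annotated start, which also has none.
Rpl15, chr14:18270972-18271001, minus strand: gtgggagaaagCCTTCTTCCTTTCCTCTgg
Rpl19, chr11:98026909-98026938, plus strand: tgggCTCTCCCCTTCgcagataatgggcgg
Rplp2, chr7:141447636-141447665, plus strand: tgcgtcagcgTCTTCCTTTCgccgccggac
Rps6, chr4:86857353-86857382, minus strand: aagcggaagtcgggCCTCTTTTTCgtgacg
Rpl7a, chr2:26910792-26910821, plus strand: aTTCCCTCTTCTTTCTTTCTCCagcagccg
Rps2, chr17:24720048-24720077, plus strand: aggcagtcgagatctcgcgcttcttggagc
Rps23, chr13:90923107-90923136, plus strand: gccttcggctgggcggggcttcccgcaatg
Rpl5, chr5:107900513-107900542, plus strand: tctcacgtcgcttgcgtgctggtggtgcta

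A run of at least 8 pyrimidines, counted anywhere in the window, was found at 39.4% of the ribosomal protein starts. It was found at 12% of all 32851 mouse starts. A run that lies wholly before the annotated start is counted too. On the other strand the shares were 4.55% and 13.2%. Over the 300-base promoters of the 66 starts, read on both strands, the core CCGGAAGT bound by ETS factors was in 16.7% and in 3.89% of all starts, the core AAGATGGC bound by YY1 in 10.6% and 2.75%, and the TATA box letters TATAAA in 9.09% and 13.6%. Starts of the same gene can overlap, as for Rpl35a. Counted per gene, the shares were 19.6% and 4.31% for ETS, 8.93% and 3.19% for YY1, and 10.7% and 15.7% for TATAAA. No member's promoter held the ETS and YY1 cores together (0.161% of all did), and 6.06% held the ETS core with a pyrimidine run (0.353% of all). These 7 searches were set after the members' promoters had been looked at. The shares describe sequence only. Rpl15 and Rpl19 both have a run in the window and lay at opposite ends of the genotype comparison below. The Rpl15 run spans the annotated start, while the Rpl19 run ends just before it.

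Of the 76 genes, Rpl26, Rpl30 and Rps27 were listed at 0 reads in all 6 libraries, and Rpl34 had 1 read in total, in the first knockout library. The other 72 (43 large, 29 small) passed the filter on low counts and were tested among 11317 genes. Levels are in CPM, each library's counts scaled to its total and corrected by the library factor. A 3′ tag library gives 1 read position per mRNA, near its end, so levels do not scale with length. Mean levels ran from 26.7 CPM for Rpl7a to 3174 CPM for Rplp1, with a median of 494 CPM. 17 genes lay at or above 1000 CPM and 15 of all 76 lay under 100 CPM.

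The 5 most abundant were Rplp1 and Rps14, then Rpl37, Rpl13a and Rps20. Rps14, a protein of the small subunit's platform, had 11113, 11331 and 6933 reads in WT against 11831, 9323 and 10869 in knockout. Rpl37 had 14236, 5355 and 11540 reads in WT against 17368, 12644 and 14095 in knockout. Rpl13a, known also for its part in silencing inflammatory mRNAs, had 8348, 3621 and 8705 reads in WT against 15390, 7939 and 10073 in knockout. The second WT library was sequenced least deeply, so each of its reads weighs more in CPM.

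The least abundant with any reads were Rpl34, Rpl7a, Rpl19, Rpl15 and Rpl28. Rpl7a had 163, 16 and 104 reads in WT against 165, 130 and 196 in knockout. Rpl28 had 165, 26 and 232 reads in WT against 352, 303 and 329 in knockout. Since ribosomes need nearly all these proteins in equal numbers, these levels were set beside the number of near-copies of each transcript's end. A copy was counted where another annotated gene matched the last 200 bases over at least 75 bases at 95% identity or more (mouse GENCODE annotation).

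**Figure D1:**
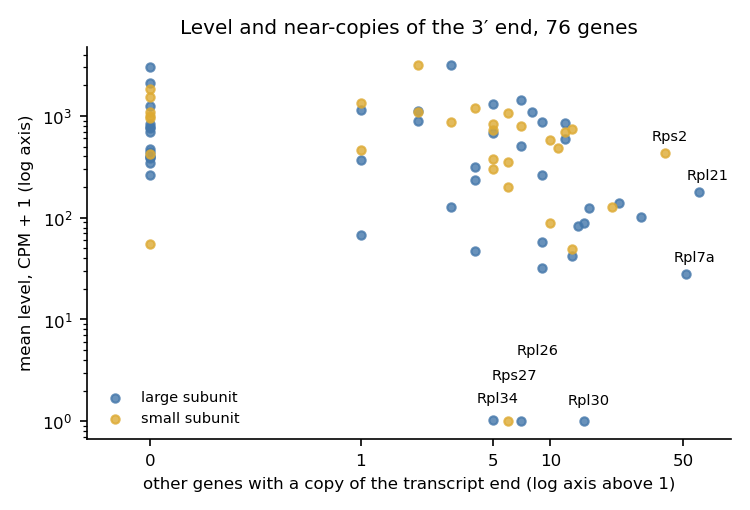
Mean level of all 76 genes over the 6 libraries (CPM plus 1, log axis) against the number of other annotated genes that hold a near-copy of the last 200 bases of the transcript (log axis above 1). Genes without a copy all lie above 50 CPM, and the 4 genes at or near 0 reads have 5 to 15 copies.

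The 21 genes without a copy had a median of 759 CPM and none was under 10 CPM. The 23 genes with 1 to 5 copies had a median of 726 CPM, the 15 with 6 to 10 copies 349 CPM, and the 17 with more than 10 copies 127 CPM. Spearman's correlation across these genes was -0.46 (n = 76, a description, since genes share the libraries and the annotation). Rpl30 has 15 such copies, Rpl26 7, Rps27 6 and Rpl34 5. Rpl7a has 52, and Rps2, at 40, still had 2451 reads in the third WT library. How the authors' counting treated reads that match several places is not given in the sources used here, so the levels of genes with copies are uncertain, and the part of copies in the low levels was not tested beyond this. Spearman's correlation of the copy number with a WT library's signed log2 difference from the knockout mean was -0.08, -0.14 and -0.07 for WT 1, 2 and 3. Differences in opposite directions can cancel in this value. The size of the difference without its sign was not compared with copy number. The 22 correlations computed with copies, transcript length, 3′ UTR length, GC content or level are descriptions.

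The libraries differed before any gene is compared. The labels' cells were neural stem cells, and the 15 neural stem cell markers together gave 7972 to 10325 CPM in WT and 9404 to 11393 CPM in knockout. Single markers varied more than the sum: the 14 tested had log2 fold changes from -1.64 to 1.94, 9 above 0 and 5 below. The 10 neuron markers gave 745 to 967 CPM in WT and 682 to 749 CPM in knockout, and of 6 tested, 4 were below 0 and 2 above (median -0.76). Totals ran from 1775152 to 5917505 reads. The Rn45s row, named for the precursor of ribosomal RNA, took 41.9%, 39.8% and 19.6% of reads in WT and 17.6%, 14.6% and 16.6% in knockout. Whether its reads came from precursor or mature ribosomal RNA was not tested. A list of 30 liver-type plasma protein genes summed to 772, 1307 and 229 CPM in WT and 164, 113 and 131 CPM in knockout, and all 26 tested had a log2 fold change below 0. Of 11 erythroid markers 9 were at 0 reads everywhere, and the sums reached at most 0.595 CPM. The microglia markers summed to 3.27 to 34.4 CPM in WT and 0.746 to 2.41 CPM in knockout, and the vascular and fibroblast markers to 3.63 to 10.4 CPM and 3.88 to 6.62 CPM. WT 1 and WT 2 therefore stood apart from WT 3 and the knockout in Rn45s and in the liver-type genes. Their part in the ribosomal protein results was not tested, and the main results are also given without them. Pml itself had 36, 35 and 44 reads in WT against 14, 23 and 5 in knockout (adjusted p = 0.197 in edgeR's quasi-likelihood test, 0.00524 in DESeq2, 0.00655 in edgeR's exact test and 0.00302 in the authors' deposited table). Every knockout library lay below every WT library in CPM, but reads remained.

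As a share of reads outside Rn45s, the ribosomal protein genes took 8.64%, 8.76% and 5.83% in WT and 6.39%, 5.19% and 5.56% in knockout. The means were 7.74% ± 1.66 (SD, n = 3) and 5.71% ± 0.615 (SD, n = 3), with an exact two-sided permutation p of 0.2, where 3 against 3 cannot go below 0.1. WT 1 and WT 2 lay above the other 4 libraries, and WT 3 lay between the knockout libraries. As a share of all reads the values were 5.02%, 5.27% and 4.69% in WT and 5.27%, 4.43% and 4.64% in knockout (exact permutation p = 0.4), and the groups overlapped. In bulk RNA, fewer cells of a type and less RNA per cell cannot be told apart.

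**Figure D2:**
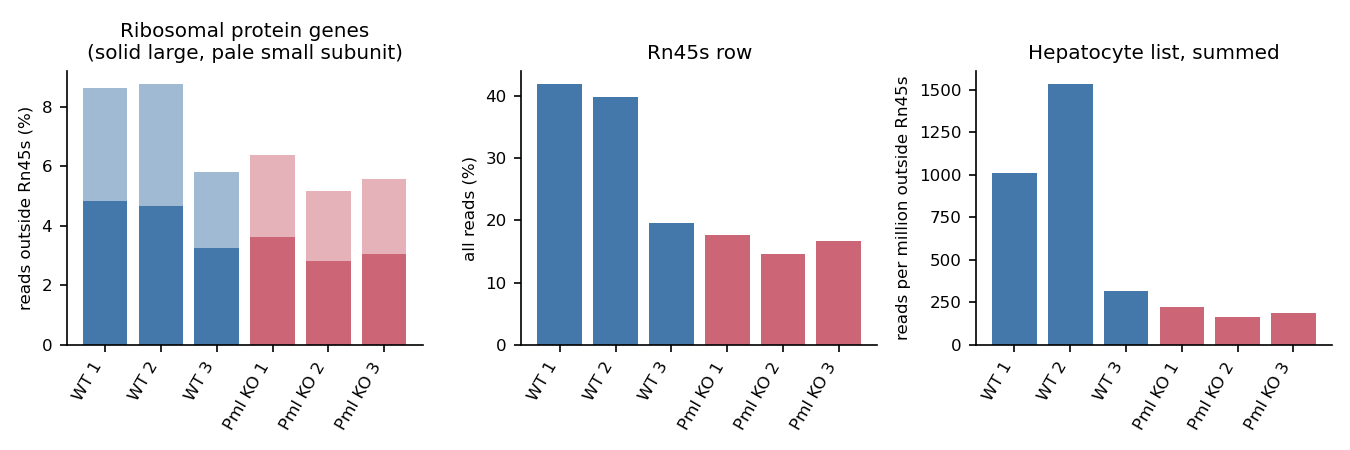
Left, share of reads outside the Rn45s row held by the large (solid) and small (pale) subunit genes in each library; middle, Rn45s share of all reads; right, summed CPM of the hepatocyte marker list, scaled to reads outside Rn45s. WT 1 and WT 2 are the high libraries in all 3 panels, while WT 3, at 5.83%, 19.6% and 319 CPM, lies near the knockout libraries.

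None of the 72 tested genes passed an adjusted p of 0.05 in edgeR's quasi-likelihood test of Pml knockout against WT, with Benjamini-Hochberg adjustment over all 11317 genes. Over all genes 0.00884% passed as higher and 0% as lower. At an unadjusted p under 0.05, 1 ribosomal protein gene was higher and 16 were lower (9 large, 7 small), that is 1.39% and 22.2% of those tested, where the shares over all genes were 6.70% and 9.19%. The log2 fold change was below 0 for 54 of the 72 genes (75%, against 50.3% of all genes). Of the 1599 genes with at least 100 CPM, 98 were higher and 246 lower at an unadjusted p under 0.05 in the quasi-likelihood test. Of these 1599 genes, 899 had a log2 fold change below 0. The median log2 fold change was -0.30 for the ribosomal protein genes (-0.31 large, -0.21 small), -0.01 for all genes and -0.10 for the 1599 genes. Leaving out WT 1 alone brought the median to -0.08. Leaving out WT 1 and WT 2 brought it to -0.03, with 42 of 72 below 0 (47.5% of all genes). That fit has 1 WT library, which is assumed to vary like the knockout libraries. In it none of the 72 genes passed, and 0.748% of all genes passed as higher and 0.419% as lower.

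**Figure D3:**
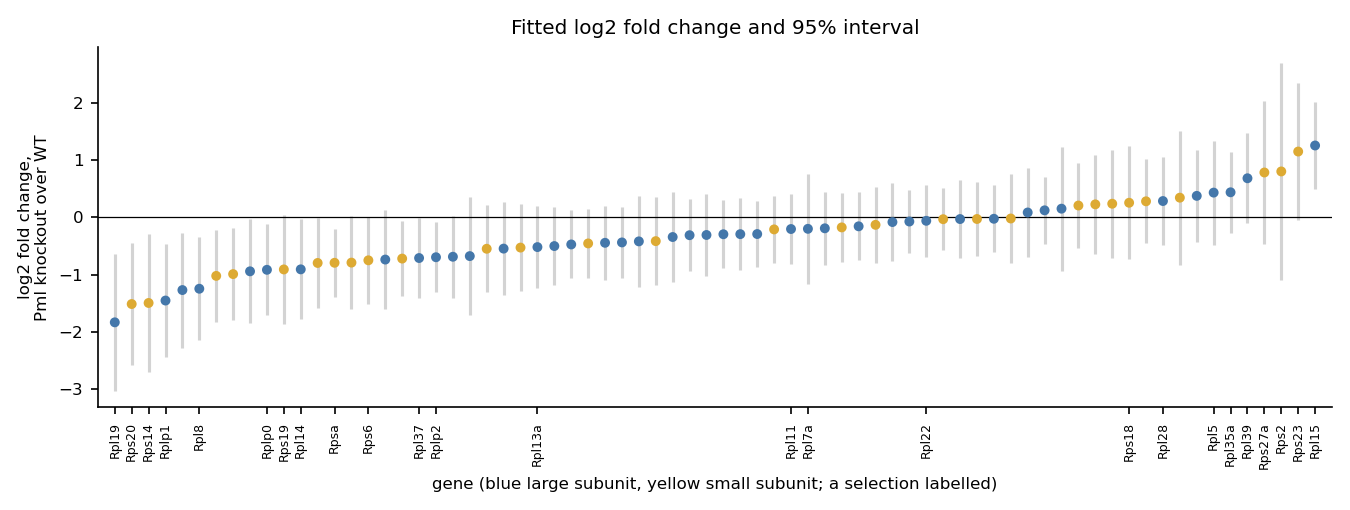
Fitted log2 fold change (knockout over WT) and 95% interval of each of the 72 tested genes, ordered by value, blue for the large and yellow for the small subunit, with a selection of genes labelled. Values run from -1.83 (Rpl19) to 1.25 (Rpl15), and 54 of 72 are below 0, with both subunits spread along the order.

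Other count tests on the same reads called few. DESeq2 called 1 higher and 2 lower (0.793% and 1.89% of all genes), and edgeR's exact test likewise called 1 and 2 (1.30% and 1.86% of all genes): Rpl15 higher, Rpl19 and Rplp1 lower in both. limma voom called 0 and 0 (0% of all genes in both directions). The authors' deposited table has Rpl15 higher and Rpl19 lower at an adjusted p under 0.05 (1.13% and 1.81% of its genes). Leaving out WT 3 alone gave 24 calls, 3 higher and 21 lower, while 589 and 937 of all genes passed (5.01% and 7.97%). The number of calls thus depended on WT 3.

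In the large subunit, Rpl15 (ENSMUSG00000012405.16, chr14:18267823-18271391, minus strand, GRCm38), whose human gene is mutated in some cases of Diamond-Blackfan anaemia, had the highest fold change. It had 65, 21 and 155 reads in WT against 353, 319 and 455 in knockout, or 23.8 ± 9.96 and 57.9 ± 8.67 CPM (SD, n = 3). The groups did not overlap. The log2 fold change was 1.25 ± 0.34 (SE, quasi-likelihood adjusted p = 0.212), and 0.71 without WT 1 and WT 2. The authors' deposited table gives 1.27 with an adjusted p of 0.0389. Rpl15 has 13 near-copies of its end.

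Rpl19 (ENSMUSG00000017404.12, chr11:98026710-98030492, plus strand, GRCm38), a large subunit protein that forms a bridge to the small subunit, lay at the other end. It had 260, 69 and 58 reads in WT against 78, 84 and 100 in knockout, or 77.4, 55.2 and 13.2 CPM against 11.7, 13.9 and 14.9 CPM. WT 1 and WT 2 were high, and WT 3 lay among the knockout values. The log2 fold change of -1.83 ± 0.54 (SE, quasi-likelihood adjusted p = 0.220) became 0.03 without WT 1 and WT 2. The authors' deposited table gives -1.80 with an adjusted p of 0.0304.

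Rpl8 had 5457, 3048 and 3320 reads in WT against 5273, 3677 and 4199 in knockout, with a log2 fold change of -1.25 ± 0.40 (SE, quasi-likelihood adjusted p = 0.238). In CPM, WT 1 (1624) and WT 2 (2436) were high, and WT 3 (754) lay within the knockout range of 606 to 793. Rpl37 (log2 fold change -0.71) had 4237, 4281 and 2619 CPM in WT and 2613, 2085 and 2102 in knockout, groups that did not overlap, although WT 3 and knockout 1 were nearly equal. Rpl39, a small protein of the exit tunnel, had 367, 150 and 382 CPM in WT and 492, 447 and 508 in knockout (log2 fold change 0.68 ± 0.35 SE), also without overlap. Rpl35a (0.44) and Rpl13a (-0.52) overlapped. Groups did not overlap for 3 of the 72 genes with the knockout above and for 9 with it below, against 12.3% and 11.3% of all genes.

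The stalk proteins Rplp0, Rplp1 and Rplp2 (uL10, P1 and P2) recruit translation GTPases. Rplp1 had 4604, 7381 and 1965 CPM in WT and 1954, 1491 and 1645 in knockout, with 15470, 9234 and 8656 reads against 12991, 9040 and 11031. WT 3 lay only just above the highest knockout library. The log2 fold change was -1.45 ± 0.45 (SE, quasi-likelihood adjusted p = 0.224), and -0.22 without WT 1 and WT 2. Rplp0 had 1143, 1544 and 591 CPM in WT and 645, 524 and 565 in knockout (-0.92). Rplp2 had 1632, 1369 and 1098 CPM in WT and 824, 863 and 841 in knockout (-0.70), with all 3 WT libraries above.

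Rpl5 and Rpl11, the pair that binds Mdm2, differed in direction and neither passed. Rpl5 had 323, 117 and 426 CPM in WT and 441, 351 and 380 in knockout (log2 fold change 0.43 ± 0.41 SE). Rpl11 had 582, 440 and 381 CPM in WT and 489, 355 and 374 in knockout (-0.21 ± 0.28 SE). In both, WT 3 lay within the knockout range. Rpl22, which is dispensable in most cells and whose loss is met by its paralog Rpl22l1, had 706, 1115 and 894 CPM in WT and 983, 810 and 808 in knockout (-0.06). Rpl22l1 had 356, 32 and 1128 reads in WT against 1660, 1407 and 1378 in knockout (log2 fold change 0.81), and -0.17 without WT 1 and WT 2.

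In the small subunit, Rps14 and Rps20 had the lowest fold changes. Rps20 had 2592, 4570 and 973 CPM in WT and 1089, 909 and 847 in knockout (-1.51 ± 0.48 SE, quasi-likelihood adjusted p = 0.231). Rps14 had 3308, 9058 and 1574 CPM in WT and 1780, 1537 and 1621 in knockout (-1.50), and 0.06 without WT 1 and WT 2. In both genes WT 3 lay within the knockout range. Rpsa, a small subunit protein that is also known as the laminin receptor precursor, had 757, 853 and 599 CPM in WT and 461, 367 and 446 in knockout (-0.79 ± 0.27 SE, quasi-likelihood adjusted p = 0.238). For Rpsa all 3 WT libraries lay above all 3 knockout libraries, as for Rplp2.

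Rps6, the phosphorylation target of S6 kinase, had 69.1, 75.9 and 35.4 CPM in WT and 43.3, 29.2 and 33.7 in knockout (-0.75), and the groups overlapped. Rps23, which lies at the decoding centre, had 86, 10 and 283 reads in WT against 549, 428 and 483 in knockout (1.15 ± 0.54 SE, quasi-likelihood adjusted p = 0.328). WT 2 was at 7.99 CPM and WT 3 at 64.2 CPM, just below the knockout's 70.6 to 82.6. Rps27a, made as a fusion with ubiquitin, had 191, 16 and 531 reads in WT against 755, 609 and 809 in knockout (0.78), and -0.12 without WT 1 and WT 2. Rps2, picked for description after its values were seen, had 1232, 13 and 2451 reads in WT against 3865, 2822 and 3946 in knockout. Its 13 reads in WT 2 equal 10.4 CPM, against 367 to 589 CPM in the other libraries. Rps18, likewise picked, had 1265, 134 and 2066 reads in WT against 2379, 2231 and 2778 in knockout.

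The proportions among the genes differed most in pairs of libraries that included WT 1 or WT 2. Between 2 knockout libraries, the SD over genes of the log2 ratio of CPM was 0.21, 0.25 and 0.18. Between WT 3 and the knockout libraries it was 0.31, 0.30 and 0.24. Between WT 1 and the other libraries it was 0.65 to 0.98, of which 0.65 to 0.72 against the knockout libraries. Between WT 2 and the others it was 0.98 to 1.49. For the genes with at least 100 CPM it was 0.29 to 0.38 between knockout libraries, 0.44 to 0.60 between WT 3 and knockout, 0.60 to 0.73 between WT 1 and knockout, and 0.81 to 1.15 for pairs with WT 2.

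**Figure D4:**
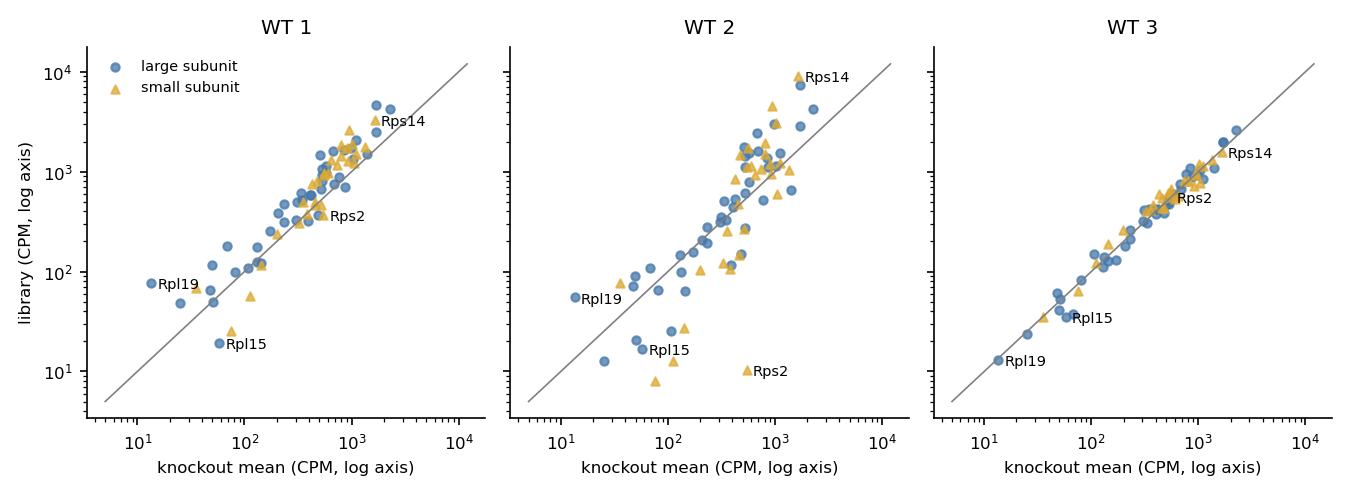
Each WT library's level (CPM, log axis) of the 72 tested genes against the mean of the 3 knockout libraries (CPM, log axis), with the line of equal values. In WT 3 every gene lies within 2-fold of the knockout mean, and in WT 2 genes fall on both sides, from Rps2 far below to Rps14 far above.

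Against the knockout mean, WT 1 had 12 genes over 2-fold higher and 2 under 0.5 times, WT 2 had 18 and 14, and WT 3 had 0 and 0. The shares among genes with at least 100 CPM were 6.50% and 3.75% in WT 1, 18.5% and 15.5% in WT 2, and 0.813% and 3.06% in WT 3. In WT 2 the ratio ran from 0.0191 for Rps2 to 5.5 for Rps14, and in WT 1 from 0.334 for Rpl15 to 5.73 for Rpl19. The median coefficient of variation was 39.0% in WT and 15.1% in knockout, and it was larger in WT for 64 of the 72 genes. The same medians were 29.8% and 13.1% for genes with at least 100 CPM, where it was larger in WT for 1304 of 1599. No test was made of this spread.

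**Figure D5:**
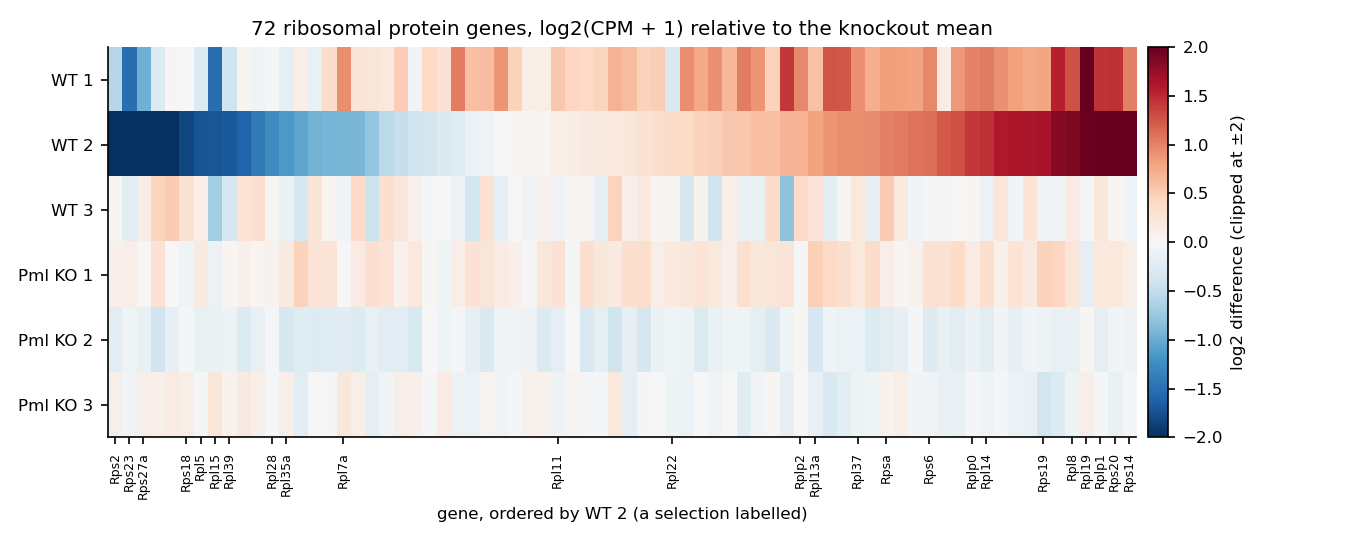
Log2(CPM + 1) of the 72 genes in each library, as the difference from the knockout mean and clipped at 2, with the genes ordered by WT 2 and a selection labelled. WT 2 runs from below to above the knockout mean and WT 1 departs in part of the same genes, while WT 3 and the knockout libraries stay pale, since WT 3 lies within 2-fold of the knockout mean for every gene.

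The balance of the subunits was compared within each library. Mean log2 CPM of the large minus the small subunit genes was -0.48, -0.28 and -0.73 in WT and -0.61, -0.67 and -0.65 in knockout. The groups overlapped (difference -0.15, exact permutation p = 0.4). With medians in place of means the difference was 0.39, in the other direction, at the smallest p the design allows (exact permutation p = 0.1), so its sign depends on the summary used.

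Some processed copies annotated as genes of their own carried reads too, while Rpl34-ps1, Rplp2-ps1 and Rps27rt had 0 reads in all libraries. The copies described first had the lowest fold changes of those tested. Rps19-ps3 had 963, 360 and 215 reads in WT against 459, 342 and 77 in knockout, where Rps19, another gene mutated in that anaemia, had 2694, 1820 and 1915 and 4247, 2612 and 2413. Rpl14-ps1 had 1516, 1021 and 646 reads in WT against 1269, 809 and 939 in knockout, beside 3589, 1786 and 2106 and 4326, 2687 and 3272 for Rpl14. The fold changes were -2.18 and -1.60 (log2) for Rps19-ps3 and Rpl14-ps1 and -0.91 and -0.91 for Rps19 and Rpl14, and none passed edgeR's quasi-likelihood test. Of the other copies tested, Rps15a-ps6 had -1.05, Rpl37rt -0.91 and Rps15a-ps4, at a mean of 1.26 CPM, 0.60. Rps19-ps3 passed in DESeq2 (adjusted p = 0.0481) and in the authors' deposited table (0.0355), and Rpl14-ps1 only in the authors' deposited table (0.0473) of the tests run here. By the definition above, which looks only at the last 200 bases of the chosen transcript, Rps19 has 12 near-copies and Rpl14 has 0. Rpl14 was therefore counted among the 21 genes without a copy. The same holds for Rpl37, although its copy Rpl37rt carried reads, so other genes of that class may have copies too. Reads that match both a parent and its copy cannot be told apart here.

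Ribosomal proteins whose symbols fall outside the naming rule lay in the same range. Of 4 tested, 3 had a log2 fold change below 0 (median -0.37, and -0.19 without WT 1). Gnb2l1, the scaffold Rack1 of the small subunit, had -0.62, and Fau, a fusion with a small subunit protein, -0.12. Of 5 paralogs of ribosomal proteins tested, 2 were below 0, among them Rpl7l1, a nucleolar assembly factor, at -0.29.

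Among 24 other TOP mRNAs, 16 had a log2 fold change below 0 (median -0.31, and -0.17 without knockout 2). None passed edgeR's quasi-likelihood test, while 1 higher and 1 lower, Hnrnpa1 and Eef1d, passed in DESeq2, edgeR's exact test and the authors' deposited table. Without WT 3, 2 were called higher and 6 lower by the quasi-likelihood test. Eef1d, an exchange factor for the elongation factor eEF1A, had -1.14 and Eif3l, a subunit of eIF3, -0.84. Hnrnpa1, an RNA binding protein, had 2.12, with 3.79 ± 3.75 CPM in WT and 19.1 ± 6.86 CPM in knockout (SD, n = 3). Of 29 translation initiation genes 19 were below 0 (median -0.16, and -0.30 without knockout 1). The 3 with the smallest p were Eif2b4 (-0.95) and Eif2b5 (-1.32), subunits of the exchange factor for eIF2, and Eif3d (-1.35). Eif2b5 and Eif3d passed as lower in DESeq2, edgeR's exact test and the authors' deposited table, and Eif2b4 in DESeq2.

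The genes that build ribosomes mostly had log2 fold changes below 0, and none passed edgeR's quasi-likelihood test. Of 63 subunit assembly factors 55 had a log2 fold change below 0 (50.3% of all genes had), with a median of -0.28. Mrto4, which prepares the stalk site, had 101, 97.5 and 42.4 CPM in WT and 34.5, 22.8 and 27.3 in knockout (-1.51). Rrp12, which takes part in subunit export, had 18.5, 30.4 and 14.5 CPM in WT and 9.18, 4.29 and 4.33 in knockout (-1.79). Ftsj3, a methyltransferase of pre-rRNA processing, had -0.98. In all 3 genes every WT library lay above every knockout library. Mrto4 and Rrp12 passed as lower in DESeq2, edgeR's exact test and the authors' deposited table. With 1 library left out, 45 to 57 of the 63 were below 0, and the lowest count and a median of -0.17 came without WT 3, where 1 was called higher and 7 lower. Without WT 1 and WT 2, a fit with 1 WT library, 58 of 63 were below 0 with a median of -0.39, where all genes had 0.03. The count was 24 of 63 with library totals in place of the factors, where 24.4% of all genes were below 0. That scaling moved the median of all genes to 0.43.

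Of 17 genes of the small nucleolar ribonucleoproteins and nucleolus 15 were below 0 (median -0.43). The count was 12 of 17 without WT 3, 13 of 17 with a median of -0.26 without knockout 2, and 17 of 17 without WT 1 and WT 2. Nhp2 (-1.08) and Nhp2l1 (-0.78) are proteins of the H/ACA and C/D particles, and Nop16 (-0.84) is a nucleolar assembly protein. Of 20 genes of RNA polymerase I and its factors 12 were below 0 (median -0.30, and -0.18 without WT 3 or without knockout 1). Polr2e (-1.05) and Polr2f (-0.78), shared by all 3 nuclear RNA polymerases, and Cd3eap (-0.79), a polymerase I subunit, had the smallest p. Of 11 chaperones and importers of ribosomal proteins 9 were below 0 (median -0.15, which ran from -0.30 without WT 1 to -0.07 without knockout 2, and was -0.29 without knockout 1), with the importin Ipo5 at -0.76.

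The 15 genes that control ribosomal protein translation or sense unassembled ribosomal proteins lay the other way, with 12 above 0 and a median of 0.28. Rheb, the activator of mTOR complex 1, had 0.81, Mdm2 0.46, and Larp1 0.28. Their values were 24.7, 16 and 43.6 CPM for Rheb in WT and 46.0, 54.1 and 51.2 in knockout. The median was 0.07 without WT 2, with 9 of 15 above 0, 0.16 without knockout 1, and 0.02 without WT 1 and WT 2. Over all 9 lists, with 184 genes tested, edgeR's quasi-likelihood test and limma voom called 0, DESeq2 called 1 higher and 6 lower, and edgeR's exact test and the authors' deposited table each 1 higher and 5 lower. Without WT 3, the quasi-likelihood test called genes in every list, where 5.01% of all genes passed as higher and 7.97% as lower. Besides the TOP mRNAs and assembly factors, these were 1 higher and 5 lower for translation initiation, 1 and 1 for RNA polymerase I, and 2 and 0 for translation control. The paralogs had 1 and 0. The nucleolar genes, the chaperones and importers, and the proteins outside the naming rule had 0 and 1 each.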

How the data were processed

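Polyadenylated transcripts were counted in 6 3′ tag (QuantSeq forward) libraries, made from RNA with an integrity number above 7 and 20 to 24 PCR cycles, per the labels' protocols. The submitters' processing notes name FastQC, HISAT2 and HTSeq, with edgeR and the build mm10, as the authors' tools. Their versions, the annotation, the strand setting and the handling of reads with several matches are not given in the sources, so antisense and overlapping genes cannot be told apart. The deposited counts are whole reads per gene, not normalised by the authors. The authors' deposited log2 values and p-values appear only in sentences that name their table, and 6 normalised per-sample columns were not used.

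Counts were fitted in R 4.3.3 with edgeR 4.0.16 (robust quasi-likelihood F test, factors by the trimmed mean of M values, default filter: 10 reads as the count minimum, 15 as the total). The threshold was a Benjamini-Hochberg adjusted p under 0.05 over all 11317 genes tested. Alternatives used limma 3.58.1 and DESeq2 1.42.0. The SE was taken as the log2 fold change over the root of F. On simulated counts for this comparison (11113 genes tested) 72.0% of genes raised 4-fold and 61.2% of those lowered 4-fold were recovered, and 4.00% and 2.08% for 2-fold. Totals ran from 1775152 to 5917505 reads, so low counts in the smallest library are the least precise.

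Members and lists were chosen with earlier results of these data known. The text names up to 6 genes with the smallest p in each direction, the 5 highest and 5 lowest by mean CPM, the genes of known roles, and up to 3 per list by p. Rps2, Rps18, Rps19, Rpl14 and the processed copies were added after their values were seen. The definition of a near-copy, the promoter motifs and the choice of transcript were also set after the data or sequences were seen. Transcripts were ranked by annotation status, then by the longest coding sequence, then by the shortest total length. A first transcript choice that took an implausibly long Rps15a transcript was replaced before any relation was computed. The choice used still took a transcript of 3706 bases for Rps20. The replicate numbers were checked as pairs: the deviations of same-numbered libraries correlated at -0.0025, 0.07 and 0.19, so the block is an alternative only. No 2 libraries of the same group agreed within sampling noise. The fit without WT 1 and WT 2 has a single WT library, assumed to vary like the others. Some genes that the rule would name are not reported here.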

Additional observations from a re-analysis of the deposited data

How the results depend on the processing

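The 72 ribosomal protein genes were refitted under 21 other settings, of which leaving out WT 2 together with the Rn45s row was chosen after seeing the data, as were the settings of the list medians. For members called, the DESeq2 Wald test and edgeR's exact test gave 3 each and leaving out 1 library gave 0 to 24, where 24 came without WT 3; all others gave 0. The median member log2 fold change was -0.40 to -0.08 with 1 library left out, -0.030 without WT 1 and WT 2 together, and 0.16 with library totals, where all genes had 0.43. Relative to all genes it was below 0 in every setting, from -0.43 to -0.06. The summed member share differed by -2.99 to -1.52 percentage points with 1 library left out. The large minus small subunit difference ran from -0.27 to -0.04 with 1 library left out, was 0.086 without WT 1 and WT 2 and 0.39 with medians. With the replicate block 0 members were called (smallest adjusted p 0.190, edgeR), the median was -0.28 and the share differed by -2.03 points (exact sign permutation p = 0.25); the block changed no call, and not every library correlated best with its own number.

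Signs of log2 fold changes turned as follows, none with a call. Without WT 1 and WT 2 together, Rps27a was at -0.12, Rpl5 at -0.13, Rps14 at 0.060, Rpl7a at 0.089, Rpl28 at -0.060, Rpl11 at 0.088, Rpl22l1 at -0.17, Rps2 at -0.034, Rps19 at 0.13, Rpl14 at 0.14 and Rps18 at -0.31, while the Rpl19 log2 fold change was 0.031 and the Fau log2 fold change 0.0069; the rp_paralogs median was -0.17 and the top_other median 0.025 (paralogs and other TOP mRNAs). With library totals, Rpl7a was at 0.27, Rpl11 at 0.28, Rpl22 at 0.40, Fau at 0.34 and Rpl7l1 at 0.15, and the medians were 0.12 for ribosome_outside_rule (proteins outside the naming rule), 0.14 for top_other, 0.29 for translation_initiation, 0.15 for rrna_polI, 0.11 for subunit_assembly and 0.31 for rp_chaperones_import, all under the 0.43 of all genes. With 1 library left out, Rpl7a ran from -0.49 to 0.43, Rpl22 from -0.20 to 0.12, Fau from -0.26 to 0.045, Rps18 from -0.15 to 0.65 and the rp_paralogs median from -0.32 to 0.20. Without WT 2 and the Rn45s row, Rpl22 was at 0.12 and Rps18 at -0.15. With 3 libraries a group, 2-fold changes were seldom recovered in simulated counts.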
